A study of Mus musculus with 4 samples.

Results

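The genes described here are 10 imprinted genes of the mouse: Meg3, Dlk1, Peg3, Ndn, Snrpn, Igf2, H19, Cdkn1c, Grb10 and Gnas. Their probe sets were taken from the platform annotation wherever it names exactly 1 gene and that gene is a member (Gtl2 is an older symbol of Meg3). This gave 17 of the 12422 probe sets on the array and 8 of the 8251 genes named on it, and so covered 8 of the 10 members. Snrpn had 0 such probe sets, and the probe set that lists H19 also lists a microRNA gene, so neither gene has a value here. The set was chosen partly on measured values: results of the same comparison were known when the genes were proposed, in particular the opposite changes at the Meg3 probe sets. Their values are therefore given as a description, without p-values.

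Gene expression was measured on single-channel arrays in total RNA of the prefrontal cortex. There were 2 pools from transgenic females with an excess of the human synaptic form of AChE (acetylcholinesterase), which hydrolyses the transmitter acetylcholine, and 2 pools from control females of strain FVB/N. Each pool combined 4 mice, and the labels state no age, transgene promoter or strain background for the transgenic animals. Whether the pools within a group shared animals is not stated either, so the spread between them, and every p-value, may be technical, and 2 arrays a group limit the precision.

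An imprinted gene is transcribed mainly from the copy inherited from 1 parent, because DNA methylation laid down in the egg or the sperm marks its control region. Imprinted genes lie in clusters, and in each cluster some genes are active on the maternal copy and others on the paternal copy. Many are strongly expressed in the developing brain and placenta, where they act on growth, metabolism and behaviour. Meg3 is a maternally expressed long noncoding RNA that shares a cluster with Dlk1, which is paternally expressed. These arrays measure the sum over both parental copies and do not separate them.

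RefSeq start windows of Meg3 and Peg3 are shown because these are the 2 member genes whose probe sets differed widely in their change. A window runs from 250 bases before to 50 bases after an annotated start, in build GRCm38.p6. RefSeq lists 2 starts for Meg3 and 1 for Peg3, and for the protein-coding Peg3 only the 250 bases before the start are printed. Capitals mark matches on either strand to TGACGTCA (the cAMP response element, which reads the same on both strands), to TATAAA (the TATA box, with TTTATA as its reverse) and to TGCCGC (the core recognised by the imprint factor Zfp57 when methylated, with GCGGCA as its reverse). The motifs were chosen after the sequences had been read.
Meg3, first start, chr12:109540746-109541045, plus strand: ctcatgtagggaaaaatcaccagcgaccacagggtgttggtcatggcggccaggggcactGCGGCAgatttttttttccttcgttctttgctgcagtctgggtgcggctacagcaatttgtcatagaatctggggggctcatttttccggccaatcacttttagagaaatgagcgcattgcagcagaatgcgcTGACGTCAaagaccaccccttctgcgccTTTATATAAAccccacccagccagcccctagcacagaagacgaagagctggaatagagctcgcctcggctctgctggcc
Meg3, second start, chr12:109545148-109545447, plus strand: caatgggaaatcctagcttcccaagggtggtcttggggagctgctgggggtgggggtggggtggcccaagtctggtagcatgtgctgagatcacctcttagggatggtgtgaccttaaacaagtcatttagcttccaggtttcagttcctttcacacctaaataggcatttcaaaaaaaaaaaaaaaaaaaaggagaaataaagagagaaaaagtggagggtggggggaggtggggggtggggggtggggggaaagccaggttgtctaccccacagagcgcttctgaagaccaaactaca
Peg3, chr7:6730420-6730669, minus strand: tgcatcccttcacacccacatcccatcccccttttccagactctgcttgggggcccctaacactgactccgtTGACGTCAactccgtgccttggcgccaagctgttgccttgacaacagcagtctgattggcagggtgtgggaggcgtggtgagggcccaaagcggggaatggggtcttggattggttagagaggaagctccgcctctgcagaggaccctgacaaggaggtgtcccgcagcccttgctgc

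The first Meg3 window holds a TGACGTCA that begins 57 bases before the start, followed by a pair of overlapping TATA box matches that begin 29 and 25 bases before it. The window also holds 1 TGCCGC match. The second Meg3 window holds 0 of the 3 motifs. The Peg3 sequence holds a TGACGTCA that begins 178 bases before the start and 0 of the other motifs. Among the 19 RefSeq windows of 8 member genes (Cdkn1c and H19 were not matched), TGACGTCA is present in 2, those of Meg3 and Peg3, while 1.79% of all 32851 windows hold it. TGCCGC is present in 4 member windows, 1 each of Meg3, Igf2, Snrpn and Grb10, and in 11.6% of all windows. TATAAA is present in 5 member windows, of the 3 genes Gnas, Meg3 and Snrpn, and in 13.6% of all windows. The Gnas windows that begin at 174327499 and 174327518 overlap, so they may share 1 match. The first Meg3 window has 13 CpG sites and the second 1, against a median of 7 over all windows. These matches describe letters in the windows and were not tested against the expression values.

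Of the 17 member probe sets, 12 passed the filter on dim probe sets, which keeps a probe set when its mean log2 intensity over the 4 arrays lies above the 40th percentile (a geometric mean of 49.4). They cover 7 genes, since all 3 probe sets of Grb10 lay below it. Closest to the limit were a Gnas probe set just inside (102082_at, geometric mean 70.1) and a Grb10 probe set just outside (93690_at, 32.4). At a Benjamini-Hochberg adjusted p under 0.05 in limma, 3 of the 12 were called, 2 higher and 1 lower in the transgenic pools. Among all 7453 tested probe sets 10% were called, 5.46% higher and 4.56% lower. Since the members were proposed from this comparison, nothing is read from their count. The 3 calls were Meg3 at both of its probe sets and Peg3 at 1 of 3. In the fit without the filter 0 were called. The calls are a description only, and Meg3 160173_at passed the filter only through its transgenic pools. The 2 groups of pools did not overlap at 7 of the 12, higher at 3 and lower at 4. They did not overlap at 53.7% of all tested probe sets, 23.8% higher and 29.9% lower. The median log2 change of the 12 was -0.19, against -0.03 over all tested probe sets. The other 9 lay between -0.70 and 0.34, with 7 below 0.

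**Figure D1:**
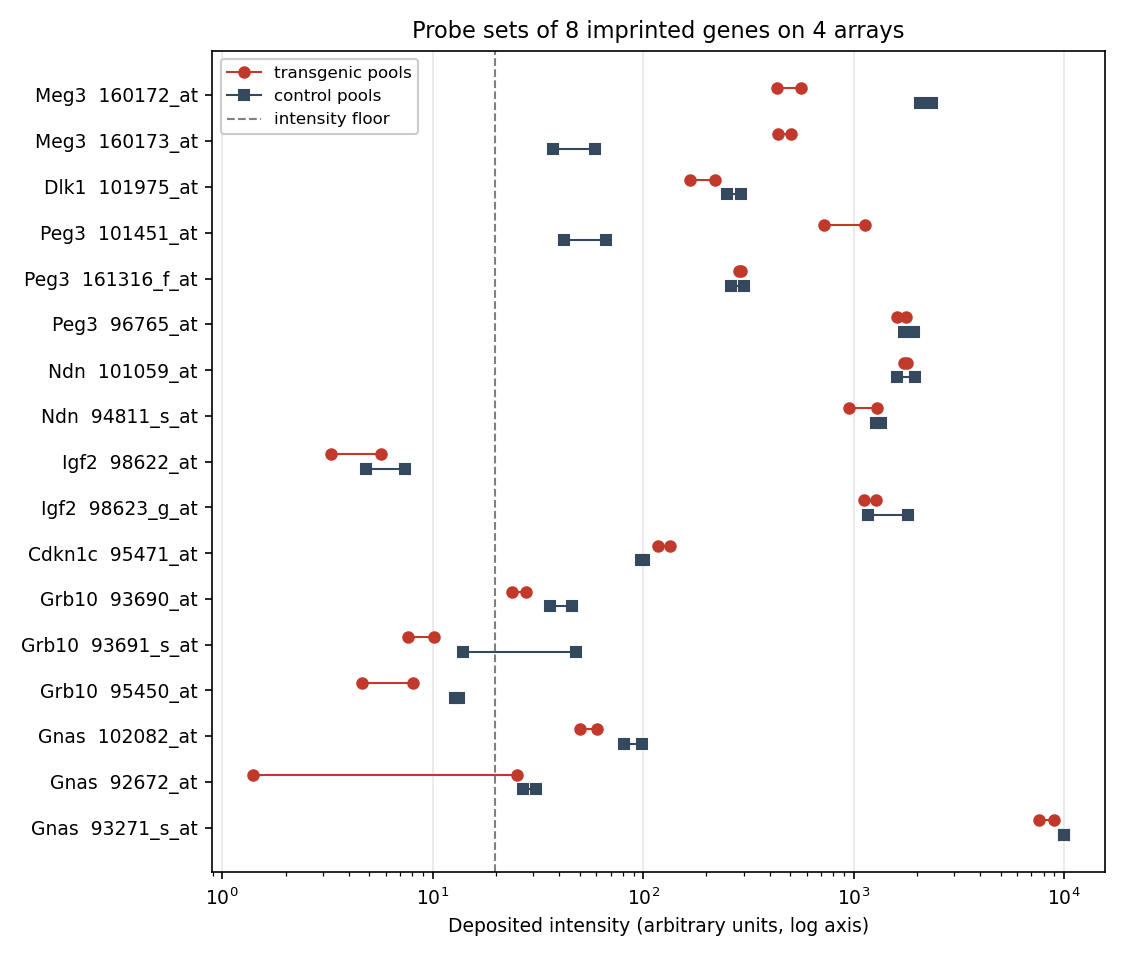
Deposited intensity (log axis) of the 17 probe sets of 8 imprinted genes, with the 2 transgenic pools as red circles above the 2 control pools as dark squares. Lines join pools of a group and the dashed line is the intensity floor of 19.675. The Meg3 probe sets and Peg3 101451_at have widely separated groups, while most other rows overlap or lie close together.

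Meg3 was read by 2 probe sets, listed under different source sequences, and they changed in opposite directions. At 160172_at the intensity was 559.7 and 434.5 in the transgenic pools, against 2073.7 and 2367.4 in the control pools. Both transgenic pools lay far below both control pools, a 4.49-fold lower signal (log2 change -2.17 ± 0.15 SE). At 160173_at the intensity was 505.7 and 435.7 in the transgenic pools, against 37.2 and 59.0 in the control pools. Here both transgenic pools lay far above the control pools, with a 10-fold higher signal (log2 change 3.32 ± 0.25 SE). This probe set passed the filter only through its transgenic pools (geometric mean 469, against 46.8 in the control pools). The log2 change at 160173_at thus exceeded that at 160172_at by 5.49, and the pooled SD of the difference between the probe sets over arrays of a group was 0.25. Intensities of different probe sets are not on a common scale, so only the changes can be set side by side.

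Opposite calls within a gene can be seen only where at least 2 of its probe sets are called. Of 909 genes read by at least 2 tested probe sets, 5 had at least 1 probe set called higher and at least 1 called lower: Klf13, Meg3, Prkcb, Thra and Klf9, named after their values were seen. That is 0.55% of such genes, but only 188 of the 909 had any call. Most of the 909 could therefore not show opposite calls, and the share does not measure how unusual they are. By the range of the log2 change within a gene, Meg3 ranked 2 of the 909 after Klf13, and Peg3 ranked 9. The median range was 0.36 and the 95th percentile 1.79. Meg3 and Peg3 were proposed with results of this comparison known, so their ranks are a description only. The Meg3 pair also rests on 160173_at, which passed the filter only through its transgenic pools. A call at some but not all tested probe sets was more common, in 154 of the 188 genes that had any call. Which Meg3 exons or transcripts each probe set reads was not analysed here.

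**Figure D2:**
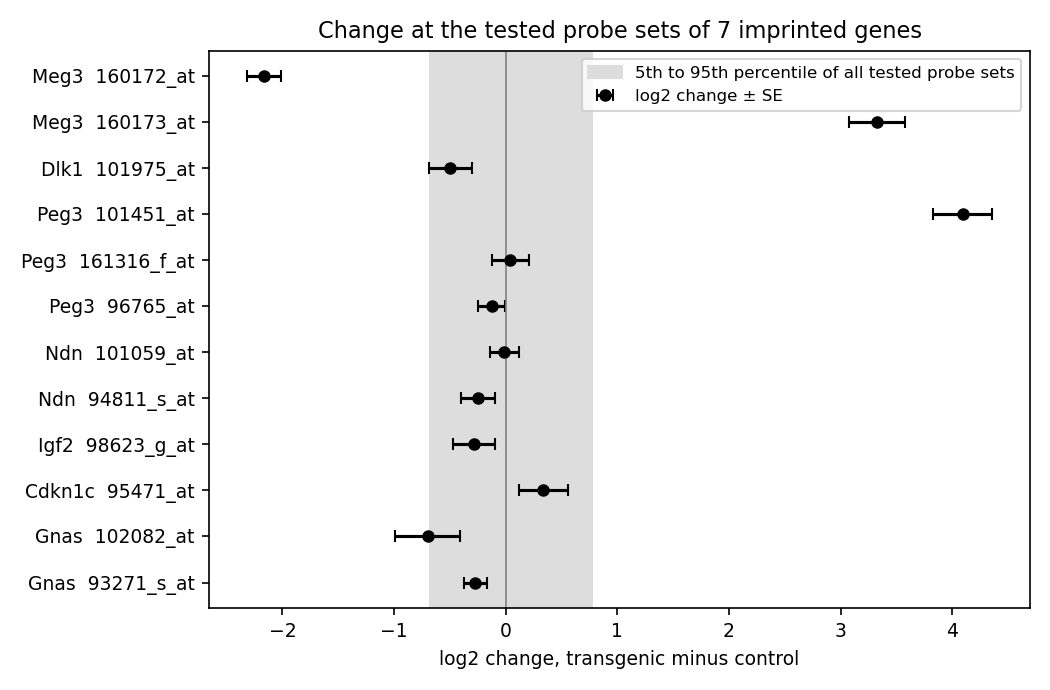
Log2 change (transgenic minus control, points, with SE as bars) at the 12 tested probe sets of 7 imprinted genes, with a grey band from the 5th to the 95th percentile of all tested probe sets (-0.68 to 0.78). The Meg3 probe sets stand on opposite sides of the band, at -2.17 and 3.32, and of the 3 Peg3 probe sets 1 stands outside it at 4.09. Gnas 102082_at, which was not called, lies just below the band at -0.70.

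The probe sets most like each Meg3 probe set were found by the Euclidean distance between log2 values centred on the probe set's mean over the 4 arrays, among 6752 tested probe sets of a single named gene. Nearest to 160172_at, the lower one, were probe sets of Capzb (distance 0.18), which caps actin filaments, the lipid kinase gene Pip5k1c (0.34), the transcription factor gene Usf1 (0.34), the keratin gene Krt12 (0.45) and the beta-actin gene Actb (0.49). Capzb at 95142_s_at read 400.2 and 272.6 in the transgenic pools, against 1485.0 and 1512.1 in the control pools. As at Meg3 160172_at, transgenic pool 2 was the lowest of the 4. Nearest to 160173_at were probe sets of Son (0.24), a nuclear speckle protein used in splicing, the adhesion molecule Cadm1 (0.28), the polarity kinase Mark2 (0.30), the nuclear receptor corepressor Nrip1 (0.40) and the neuronal transcription factor Myt1l (0.45). Son at 100401_at read 292.1 and 292.6 in the transgenic pools, against 24.4 and 32.5 in the control pools. The probe sets of Son, Mark2 and Nrip1 passed the filter only through their transgenic pools, as Meg3 160173_at did. That of Pip5k1c passed only through its control pools. Likeness over 4 arrays mostly reflects the size of the difference between groups.

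**Figure D3:**
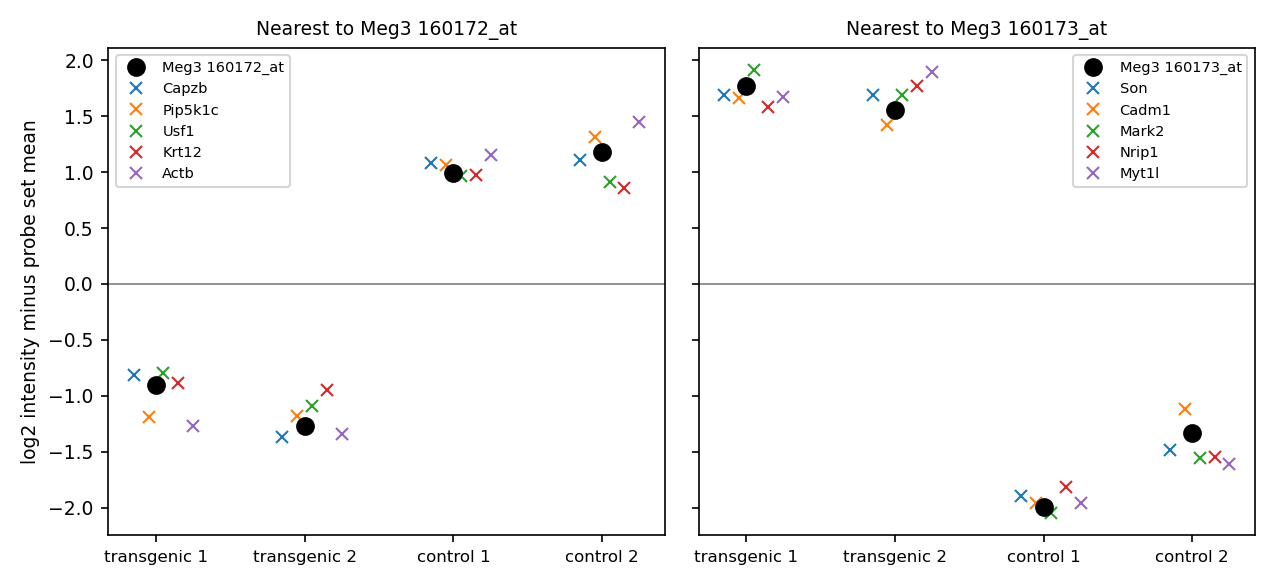
Log2 intensity minus the probe set's own mean on each of the 4 arrays for Meg3 160172_at (left) and 160173_at (right), as black circles, with the 5 nearest probe sets of other genes as crosses. At 160172_at the transgenic pools lie below 0 and the control pools above it, and at 160173_at the reverse holds.

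Dlk1 encodes a transmembrane protein related to Notch ligands that restrains differentiation, and lies next to Meg3 in the imprinted cluster. Its probe set 101975_at read 220.0 and 167.1 in the transgenic pools, against 292.8 and 249.4 in the control pools. Both transgenic pools were below both control pools, by 0.50 ± 0.20 SE on the log2 scale, and the probe set was not called. Its change had the sign of Meg3 160172_at and the opposite sign to Meg3 160173_at, and was smaller than either. As the Meg3 probe sets went opposite ways, any sign would match 1 of them. Other RNAs of this cluster (Rian, Mirg, Rtl1 and Dio3) were not among the tested genes.

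Peg3 encodes a paternally expressed zinc finger protein of neurons. At 101451_at it read 723.1 and 1128.4 in the transgenic pools, against 66.3 and 42.3 in the control pools. Both transgenic pools lay far above the control pools, a 17.1-fold higher signal (log2 change 4.09 ± 0.27 SE). At 96765_at the transgenic pools read 1766.2 and 1607.3 and the control pools 1744.8 and 1940.2. At 161316_f_at the transgenic pools read 292.8 and 286.1 and the control pools 260.7 and 303.0. At both of these the groups overlapped, with log2 changes of -0.13 ± 0.12 and 0.04 ± 0.16. The change at 101451_at exceeded that at 96765_at by 4.22 and that at 161316_f_at by 4.05. Thus the higher Peg3 signal was seen at 1 of 3 probe sets, and the rise at Meg3 at 1 of 2.

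Ndn (necdin) is a paternally expressed protein of postmitotic neurons in the cluster whose loss underlies Prader-Willi syndrome in humans. At 101059_at it read 1738.3 and 1790.3 in the transgenic pools, against 1607.8 and 1965.3 in the control pools, and at 94811_s_at 954.0 and 1289.2, against 1354.2 and 1282.7. The groups overlapped at both, and the log2 changes were -0.01 ± 0.13 and -0.25 ± 0.15. The Ndn probe sets thus stayed within 0.24 of each other in their change, in contrast to those of Meg3 and Peg3.

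Igf2 encodes a growth factor that in the adult brain comes largely from the choroid plexus, meninges and vessels. Its probe set 98623_g_at read 1277.2 and 1125.2 in the transgenic pools, against 1172.5 and 1815.2 in the control pools. The control pools differed from each other more than the groups did, and the log2 change was -0.28 ± 0.19, or 0.03 without control replicate 2. The other probe set, 98622_at, is listed under the same source sequence and read 5.7 and 3.3 in the transgenic pools and 7.4 and 4.8 in the control pools, all below the floor of 19.675. Of 14 choroid plexus and meningeal genes on the array 7 were tested and 0 were called. Their summed intensity was 9504.2 and 9651.4 in the transgenic pools, against 10231.5 and 9289.5 in the control pools, and Kl was below the floor on all arrays. In such tissue RNA, fewer cells of a type and less RNA per cell cannot be told apart.

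Cdkn1c encodes the cell cycle inhibitor p57, is maternally expressed and restrains growth. At 95471_at it read 117.9 and 133.6 in the transgenic pools, against 101.5 and 97.5 in the control pools. Both transgenic pools were above the control pools, by 0.34 ± 0.22 SE on the log2 scale, and the probe set was not called.

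Grb10 encodes an adaptor that binds the insulin and IGF1 receptors and dampens their signal, and in the mouse it is expressed from the paternal copy in neurons. All 3 of its probe sets were dim. At 93690_at the transgenic pools read 23.7 and 27.8 and the control pools 46.1 and 36.1. At 93691_s_at they read 7.6 and 10.2 in the transgenic pools, against 47.8 and 14.0 in the control pools, and 3 of these 4 values lay below the floor. At 95450_at all values lay below it, at 4.6 and 8.1 in the transgenic pools and 12.7 and 13.3 in the control pools. As deposited, both transgenic pools were below both control pools at all 3 probe sets, and none of the 3 was tested. With the floor applied, the groups overlapped at 93691_s_at and 95450_at. Among all tested probe sets 29.9% lay lower in the transgenic pools without overlap, so nothing is read from this direction.

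Gnas encodes the alpha subunit of the stimulatory G protein, which couples receptors to cAMP production, and its locus gives several transcripts with different parental expression. The brightest probe set, 93271_s_at, read 8995.9 and 7615.5 in the transgenic pools, against 9986.8 and 10013.6 in the control pools. Both transgenic pools were lower, by 0.27 ± 0.10 SE on the log2 scale, but after quantile normalization the log2 change was -0.03. At 102082_at the transgenic pools read 49.9 and 60.6 and the control pools 98.4 and 81.1 (log2 change -0.70 ± 0.29 SE). At 92672_at, which was not tested, they read 1.4 and 25.1 in the transgenic pools, against 26.8 and 30.9 in the control pools. The value of 1.4 lay below the floor. As deposited, all 3 Gnas probe sets were lower in both transgenic pools, and neither tested one was called. Since 29.9% of all tested probe sets lay lower in the transgenic pools without overlap, nothing is read from this shared direction.

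Imprinted genes outside the member list were read from the brightest tested probe set of each gene. Of 74 such genes listed, 43 were on the array and 26 were tested. Of these, 4 were called higher and 0 lower. Among all 5701 genes read in this way 9.49% were called, 5% higher and 4.49% lower. Ube3a and Ago2, among the 4, passed the filter only through their transgenic pools, where they are high. Nothing is therefore read from this count. The median log2 change of the 26 was 0.08, against -0.03 over all tested probe sets, and 15 lay above 0. Ube3a, the maternally expressed ubiquitin ligase lost in Angelman syndrome, read 192.3 and 244.2 in the transgenic pools, against 0.6 and 1.2 in the control pools. Both control values lay below the floor, so no fold was measured: the log2 change was 3.46 against the floor of 19.675 and 2.09 with a floor of 50.9. Ube3a passed the filter only through its transgenic pools, and it was not tested with the filter at the 60th percentile or with either transgenic replicate left out. Ube3a lies in the same imprinted cluster as Ndn, whose log2 changes were -0.01 and -0.25.

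Ago2, an Argonaute protein of RNA silencing, read 156.8 and 196.5 in the transgenic pools, against 43.1 and 50.4 in the control pools (log2 change 1.91 ± 0.26 SE). Ago2 likewise passed the filter only through its transgenic pools (geometric mean 176, against 46.6 in the control pools), so no p-value is given for either gene. Impact, a regulator of translation, read 399.1 and 968.8, against 270.8 and 268.4 in the control pools (1.21 ± 0.33, limma adjusted p = 0.0464). The transgenic pools of Impact differed widely, and without transgenic replicate 2 its log2 change was 0.57 and it was no longer called. Th, the rate-limiting enzyme of catecholamine synthesis, read 469.1 and 405.3 in the transgenic pools, against 313.0 and 245.4 in the control pools (0.65 ± 0.18, limma adjusted p = 0.0450). Of 13 alternatives, the call for Impact held in 7 and that for Th in 6, and without the filter on dim probe sets none of Ube3a, Ago2, Impact and Th was called. The other 22 tested genes, among them Igf2r, Mest, Sgce, Nnat and Rasgrf1, did not pass, with log2 changes between -0.40 (Slc38a4) and 0.36 (Ampd3).

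**Figure D4:**
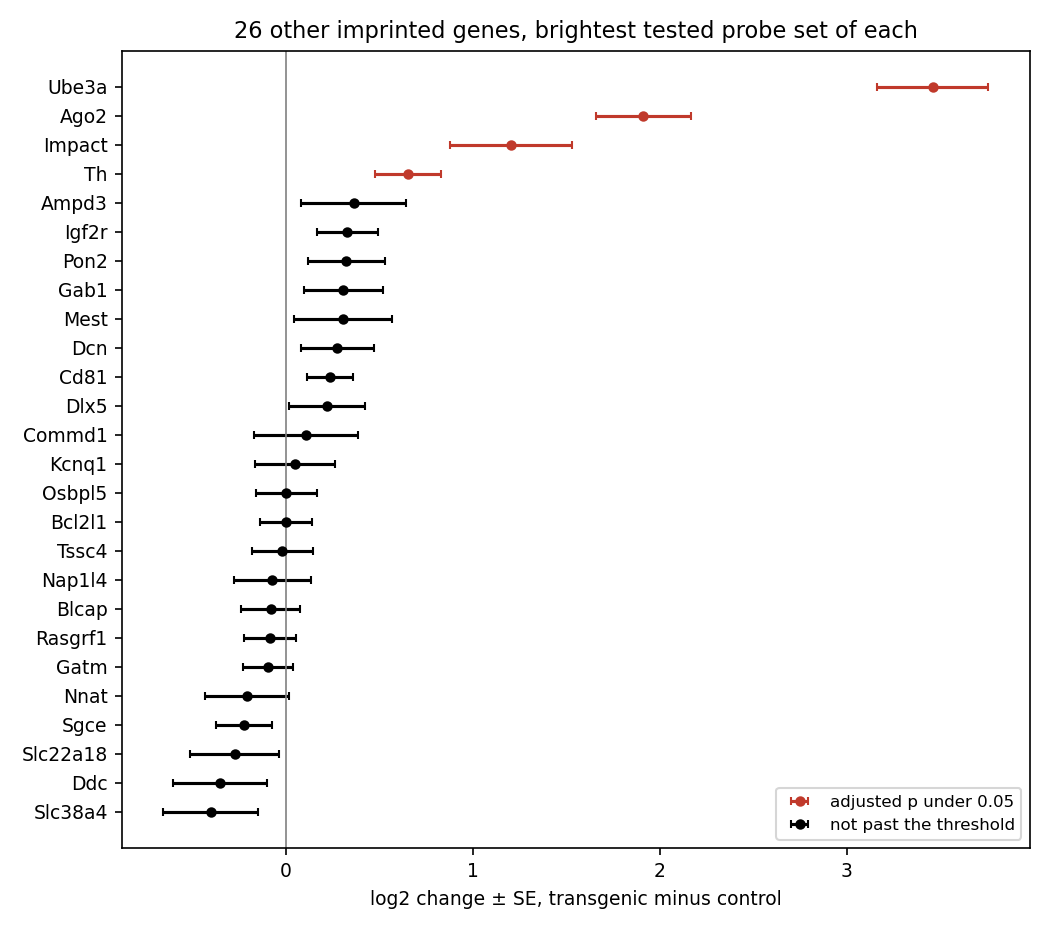
Log2 change (transgenic minus control, with SE as bars) at the brightest tested probe set of each of 26 imprinted genes outside the member list, in order of change. The 4 genes past an adjusted p of 0.05 (red) are Ube3a, Ago2, Impact and Th, all above 0, and the other genes lie between -0.40 and 0.36. Ube3a and Ago2 passed the filter only through their transgenic pools, so their calls carry no weight here. The Ube3a change is measured against the intensity floor.

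Of 31 listed factors that set or read imprints 15 were tested; 1 rose and 0 fell, which is 6.67% called, against 9.49% over all genes read in this way, with a median log2 change of 0.07. Suz12, a core subunit of the Polycomb complex that methylates histone H3, read 143.5 and 152.5 in the transgenic pools at 94044_at, against 83.8 and 71.6 in the control pools (log2 change 0.93 ± 0.23 SE, limma adjusted p = 0.0305). The call for Suz12 was lost with either transgenic replicate left out, without control replicate 2 and without the filter on dim probe sets. Its other probe sets were dim and untested, and lay lower in the transgenic pools at 101662_at (21.6 and 27.0, against 54.1 and 33.6 in the control pools). The histone deacetylase Hdac2 had 0.53 ± 0.15 (limma adjusted p = 0.0598) and the histone methyltransferase Ehmt2 -0.49 ± 0.14 (limma adjusted p = 0.0601). Both were called with the replicate number as a block, with limma adjusted p-values of 0.0426 and 0.0282. The adjusted p over the alternatives was 0.0165 to 0.326 for Hdac2 and 0.0122 to 0.344 for Ehmt2. Ctcf, the insulator protein of the Igf2 and H19 domain, and the maintenance methyltransferase Dnmt1 had log2 changes of 0.23 and 0.05 and did not pass.

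Among partners of Igf2 and Grb10, 10 of 24 listed genes were tested; 1 rose and 0 fell, which is 10% called, against 9.49% over all genes read in this way, with a median log2 change of 0.18. Igf1r, the receptor through which both Igf1 and Igf2 signal, read 764.5 and 712.9 in the transgenic pools, against 98.3 and 100.9 in the control pools (log2 change 2.89 ± 0.16 SE, limma adjusted p = 2.8e-06), and it held in all 13 alternatives. Grb2, an adaptor of receptor tyrosine kinases, had -0.46 ± 0.19 and Igfbp2, an IGF binding protein, 0.38 ± 0.13, and neither passed. Among Sm and other spliceosomal proteins, the partners of the untested Snrpn, 9 of 17 listed genes were tested; 1 rose and 1 fell, 22.2% against the same 9.49%. Snrpd3 of the Sm ring read 82.3 and 97.0 in the transgenic pools, against 255.7 and 240.3 in the control pools (log2 change -1.47 ± 0.20 SE, limma adjusted p = 0.0012), a call that held in 12 of 13 alternatives. Snrpe, also of the Sm ring, read 708.6 and 728.2, against 476.9 and 530.8 in the control pools (0.51 ± 0.14, limma adjusted p = 0.0440), and its call held in 7 of 13 alternatives. Snrpa1 of the U2 particle had 0.59 ± 0.25 and did not pass.

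The cell types in the tissue give the setting for these values. All 13 cortical neuron markers on the array were tested, and their summed intensity was 13190.8 and 14437.3 in the transgenic pools, against 16588.2 and 16538.4 in the control pools; 1 of 13 rose and 2 fell. Blood genes moved with the groups: 3 of 3 tested rose (Alas2 and 2 haemoglobin genes), and the list summed to 11913.6 and 10200.9 in the transgenic pools, against 3881.7 and 3427.9 in the control pools. Hypothalamic markers, the list of a region rich in Peg3, Ndn and Dlk1, had 0 calls among 7 tested genes, with sums of 1956.4 and 1639.0 in the transgenic pools and 1916.5 and 1860.1 in the control pools. Calls among the other marker lists were 1 higher and 2 lower of 14 interneuron genes, 2 and 2 of 10 astrocyte genes, 0 of 7 oligodendrocyte genes, 0 and 1 of 9 microglial genes, 1 and 0 of 10 endothelial and mural genes and 0 of 6 striatal genes. Over all genes read in this way 5% were called higher and 4.49% lower. The part of any of these in the values of the imprinted genes was not tested.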

How the data were processed

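RNA of 2 transgenic and 2 control pools was measured on 4 arrays. The authors' deposited values are linear intensities, a reading taken from the values themselves, and the tool that summarised the probes is not stated. Array medians lay within 1.85% and upper quartiles within 2.29% of each other, under the limit of 10%, so the values were used as deposited. After 66 control probe sets had been set aside, 12422 of 12488 remained. The platform annotation gives a single gene to 10833 of them, and only these were named; 10817 symbols were taken through gene identifiers from the RefSeq table of GRCm38.p6. Values were floored at the 25th percentile (19.675) and log2-transformed, so folds of dim probe sets are understated. SDs and SEs cover 2 arrays a group.

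Differences, transgenic minus control, were fitted with limma 3.58.1 in R 4.3.3 (eBayes with an intensity trend) over 7453 probe sets above the filter, with Benjamini-Hochberg adjustment over all of them. The fit was first run on simulated data, with independent noise on each array and changes planted only in brighter probe sets. Such data do not cover pools that share animals or changes in dim probe sets. Named genes were every member probe set, list genes that passed (filled to 3 by size of change) and the 5 probe sets nearest to each Meg3 probe set. Other genes mentioned were chosen after their values were seen. The members and lists were chosen with earlier results of these data known. Alternatives changed the filter, floor, scaling, prior and replicate block, and left out each array.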

Additional observations from a re-analysis of the deposited data

How the results depend on the processing

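The values rest on 2 arrays a group. Of 221 recomputed log2 changes of single member probe sets, 212 moved by at most 1 SD between replicates. Much of this was fixed in advance. Changing only the filter, intensity trend, prior or replicate block leaves a log2 change as it is. With 2 arrays a group, leaving out 1 cannot move it by more than this SD. Grb10 93691_s_at without control replicate 2 (-0.64 to -1.28) moved by this SD itself and was left out of the 212 through rounding. The 3 called probe sets kept their sign in all 13 alternatives. Leaving out 1 array could not reverse the sign there either, since their groups did not overlap. Among probe sets that were not called, 5 values of 3 probe sets changed sign: Peg3 161316_f_at to -0.07 without control replicate 1, Ndn 101059_at to 0.13 without control replicate 2 and to 0.01 after quantile normalization and without transgenic replicate 1, and Igf2 98623_g_at to 0.03 without control replicate 2. The difference between the changes at the Meg3 probe sets (5.49) was 4.99 with log2(intensity + 20) in place of a floor and 5.26 to 5.73 with 1 array left out. Without the filter on dim probe sets 48 probe sets passed in all (34 higher, 14 lower), against 747 (407 and 340), and the counts were 0 for the member probe sets, 1 for other imprinted genes (Sfmbt2, which the filter leaves out), 0 for imprint regulators and 0 for Sm and snRNP genes, against 3, 4, 1 and 2. Without the intensity trend 395 passed in all, 123 of them lower, with 2 other imprinted genes and 1 Sm and snRNP gene. Other imprinted genes numbered 2 with the filter at the 60th percentile, with the floor at the 40th percentile and after quantile normalization, where Sm and snRNP genes numbered 1. Imprint regulators numbered 2 without a floor. Leaving out each array in turn gave 387 to 745 probe sets in all (205 to 444 higher, 180 to 301 lower), 3 to 4 member probe sets, 1 to 4 other imprinted genes, 0 to 3 imprint regulators and 1 to 2 Sm and snRNP genes; the lowest totals came without transgenic replicate 1 (431) or 2 (387). The cause of these shifts was not tested. Arrays with the same replicate number share only a number (correlation of deviations 0.04 across probe sets). With the replicate number as a block 892 probe sets passed (466 higher, 426 lower) and imprint regulators numbered 3.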
